A study of Homo sapiens with 12 samples.

Results

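Squamous epithelium is specified by a small set of transcription factors, and 10 genes of that set were examined here in oral squamous cell carcinoma (OSCC) cells with and without rapamycin: *TP63*, *SOX2*, *KLF4*, *KLF5*, *GRHL2*, *PITX1*, *TFAP2A*, *OVOL1*, *ZNF750* and *NOTCH1*. They were chosen by name, and all 10 were found among the 58302 gene identifiers of the RNA-seq count table and all 10 passed the filter on low counts, which left 15826 genes. Of the 14586 m6A peaks listed in the 4 peak lists, 40 lay on these genes. Rapamycin inhibits the kinase mTOR and was used by the study to induce autophagy.

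RNA-seq comprised 4 libraries, 2 of cells with 100 nM rapamycin and 2 of untreated control cells, each treatment having a library numbered 1 and a library numbered 2. MeRIP-seq, in which RNA fragments bound by an antibody against m6A (N6-methyladenosine, a methyl mark on mRNA) are sequenced beside the input RNA, comprised 8 libraries. HSC3 and CAL33, both established human OSCC lines, were each sampled with 100 nM rapamycin for 3 days and without it, and each condition gave 1 input library and 1 immunoprecipitated library. No engineered allele is given for any group. The labels do not say whether libraries came from separate cultures. The main RNA test held treatment and number as terms. Its p-values therefore measure only how far the change with rapamycin differs between numbers 1 and 2, moderated across genes. That spread may be technical, or may hold a difference between cell lines.

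Which line each RNA-seq library came from could not be settled from the labels. There, HSC3 is given for the rapamycin pair and CAL33 for the control pair, but in MeRIP-seq number 1 is HSC3 and number 2 is CAL33 in both treatments. If the RNA-seq labels hold, rapamycin and cell line cannot be told apart in the RNA comparisons of rapamycin with control, and numbers 1 and 2 are libraries of 1 line within each treatment. Across genes, log2 CPM (counts scaled to a common library size) correlated at 0.966 and 0.956 between libraries of the same number and at 0.761 to 0.811 between the others. Over 357 genes with a peak in both HSC3 lists and in neither CAL33 list, RNA in number 2 minus number 1 had a median of −0.46 on the log2 scale. Over 189 genes with the reverse peak pattern the median was 0.46. The RNA-seq libraries are therefore named below by treatment and number only.

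In stratified epithelium p63, the product of *TP63*, maintains the basal layer, and SOX2 works beside it in the proliferating compartment. KLF4, OVOL1 and ZNF750 act in the layers that leave the cell cycle and differentiate, while KLF5, GRHL2 and TFAP2A maintain the epithelial state across layers. PITX1 is a homeobox factor of oral ectoderm, and NOTCH1 is a receptor whose released intracellular part enters the nucleus and drives the step from the basal to the suprabasal layer. In squamous carcinomas, *NOTCH1* and *ZNF750* are known for inactivating mutations and the chromosome arm of *TP63* and *SOX2* for amplification.

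With rapamycin, 1 of the 10 genes changed: *KLF4* rose, 3.02-fold. Across all tested genes 8.15% passed the same test, 4.65% higher and 3.50% lower, so 1 of 10 is close to the share among all genes. The split over all genes was 736 higher and 554 lower, and 805 and 360 with upper-quartile normalization. Between libraries numbered 1 and 2, 9 of the 10 genes differed, where 37.3% of all genes did. *SOX2* and *ZNF750* passed the filter on low counts through number 2 alone, and with at least 10 counts in every library 7 of 8 genes differed, beside 3927 of 12883 over all genes. Of the 10 genes, 8 were higher in number 2 (17.0% of all genes were) and *OVOL1* was lower (20.2% of all genes were), while *TFAP2A* did not pass the test. Peaks of m6A were listed on 7 of the 10 genes and on none of *TP63*, *OVOL1* and *ZNF750*.

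Sequences just before the start sites are shown for *KLF4*, the gene that rose with rapamycin, and for *TP63* and *SOX2*. Of the 10 genes, *TP63* and *SOX2* had the smallest p-values for the difference between numbers 1 and 2. *SOX2* passed the filter on low counts through number 2 alone, so its p-value served only to choose the gene. The sequences are the 120 bases before the start in RefSeq (GRCh38.p14), for *SOX2* chr3:181711805-181711924 and for *TP63* chr3:189631269-189631388, both on the plus strand, and for *KLF4* chr9:107489770-107489889 on the minus strand. The *TP63* start used here lies 34643 bases downstream of the first base of the gene, inside it, and the counts cover all transcripts of the gene. No other start of *TP63* was read, so the stretch does not stand for every transcript of the gene. Which transcripts these cells make was not examined. Capitals mark matches to the GC box (GGGCGG or its reverse complement CCGCCC) and the CCAAT box (CCAAT or ATTGG).
SOX2: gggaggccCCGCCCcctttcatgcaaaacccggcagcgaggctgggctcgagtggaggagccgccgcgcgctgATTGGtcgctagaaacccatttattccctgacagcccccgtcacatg
TP63: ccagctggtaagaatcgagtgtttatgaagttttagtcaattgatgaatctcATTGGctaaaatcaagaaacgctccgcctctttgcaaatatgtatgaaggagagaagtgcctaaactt
KLF4: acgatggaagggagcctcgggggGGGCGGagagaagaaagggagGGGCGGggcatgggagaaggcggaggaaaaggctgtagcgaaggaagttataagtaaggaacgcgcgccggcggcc
Each stretch was read from the gene's own strand, 5′ to 3′.

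Promoter sequences were available for 7 of the 10 genes, with 2 starts each for *KLF5* and *TFAP2A*. In the 250 bases before the start, the GC box was found 4 times for *KLF4*, 4 times for *NOTCH1*, 4 times for *PITX1*, once for *SOX2* and 2 times for 1 of the starts of *KLF5*, and 42.6% of 35116 promoters of the same length held at least 1 on either strand. The CCAAT box occurred before *SOX2* (1 match), *TP63* (2 matches) and 1 start of *KLF5* (2 matches), and before 32.0% of all promoters. The *TP63* start used and both *TFAP2A* starts had no GC box in this window. The CACCC box (CCACCC or GGGTGG), the kind of sequence that KLF factors bind, was found before *PITX1* (3 matches), *NOTCH1* (1 match) and 1 start of *TFAP2A* (1 match), and before 31.3% of all promoters. The TATA box (TATAAA or TTTATA) was found before 1 start of *KLF5* and 1 of *TFAP2A*, and before 10.7% of all promoters. The start used for *PITX1*, the *KLF5* start with the GC and CCAAT boxes and the *TFAP2A* start with the CACCC box lie inside the annotated gene. Their windows lie inside it too, not upstream of the gene. All matches given here are of letters only.

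**Figure D1:**
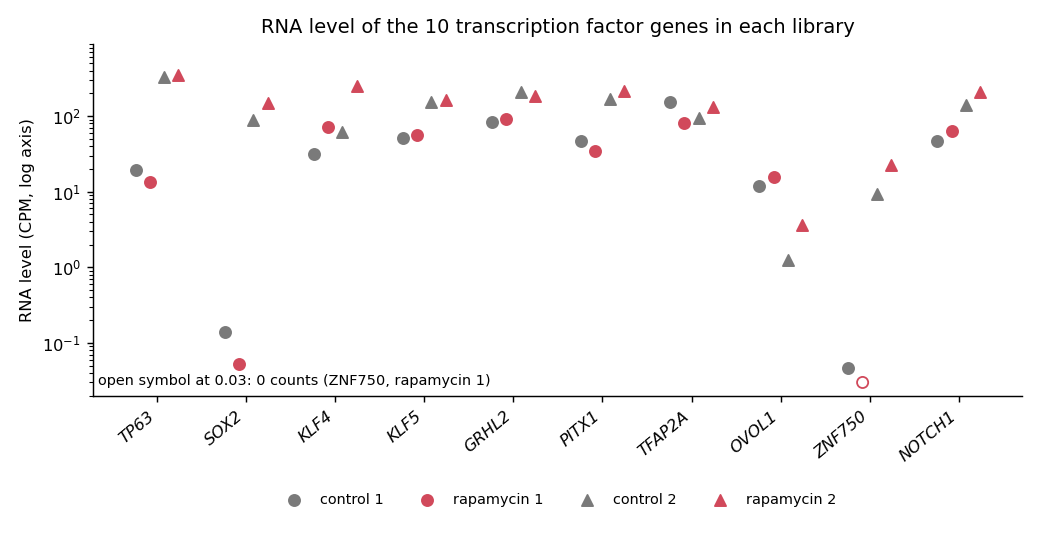
RNA level of each of the 10 genes in CPM (log axis) in the 4 RNA-seq libraries, with circles for number 1, triangles for number 2, grey for control and red for rapamycin. Both triangles lie above both circles for 7 genes and below them for OVOL1, and they overlap for TFAP2A and KLF4, while KLF4 is the gene whose red symbols lie above both grey ones and that passed the test for rapamycin.

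*KLF4*, which encodes a zinc finger factor of differentiating cells, had 31.7 and 61.7 CPM in control 1 and 2 and 71.6 and 248 CPM in rapamycin 1 and 2. Both rapamycin libraries were above both control libraries. The log2 fold change, with the number as a block, was 1.59 ± 0.27 (SE) with an adjusted p of 0.00131 in edgeR's quasi-likelihood test. It was higher in 2 of 2 numbered pairs, by 1.17 in number 1 and 2.00 in number 2 on the log2 scale. Without the replicate block the value was 1.77 with an adjusted p of 0.9997 (unadjusted 0.0863), and no gene of the whole table passed. In number 2 the fitted level was higher than in number 1 by 1.38 ± 0.27, with an adjusted p of 0.000204, but the numbers overlapped (control 2 lay below rapamycin 1) and this call was lost when the treatment term was left out (adjusted p = 0.127).

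*OVOL1* and *ZNF750*, the other factors of the differentiating layers, differed between the numbers in opposite directions. *OVOL1*, a repressor of mesenchymal and proliferative genes, had 11.8 and 15.8 CPM in control 1 and rapamycin 1 but 1.27 and 3.68 CPM in control 2 and rapamycin 2. It was the only one of the 10 to be lower in number 2, by −2.63 ± 0.47 on the log2 scale (adjusted p = 5.26e-05). Its rapamycin value was 0.92 ± 0.45, with 0.41 and 1.47 in the pairs of number 1 and 2, and did not pass (adjusted p = 0.217). *ZNF750*, a target of p63 that promotes terminal differentiation, had 1 count in control 1 and 0 in rapamycin 1, against 218 counts (9.21 CPM) in control 2 and 408 counts (22.4 CPM) in rapamycin 2. Summed over treatments, number 2 held 608 times the level of number 1, with an exact 95% interval of 109 to 24000 that covers counting error only (adjusted p of the difference = 8.77e-10). Since *ZNF750* passed the filter on low counts through number 2 alone, that p-value adds no support to the counts. In number 2 it was higher with rapamycin by 1.27 on the log2 scale, the rapamycin test gave an adjusted p of 0.271, and number 1 was too low to give a value.

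*TP63* had 19.7 and 13.5 CPM in control 1 and rapamycin 1 and 332 and 353 CPM in control 2 and rapamycin 2. The libraries fell into a low and a high pair by number, with little movement within either. The difference was 4.39 ± 0.30 on the log2 scale (adjusted p = 4.34e-12), which is 21-fold. For rapamycin the value was −0.22 ± 0.27 (adjusted p = 0.667), and the pairs moved apart by sign, with −0.54 in number 1 and 0.09 in number 2.

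*SOX2*, which encodes an SRY-box factor of progenitor cells, was close to absent from number 1. It had 3 counts in control 1 and 1 count in rapamycin 1, which are at or under the floor of 3 counts, against 2075 counts (87.7 CPM) in control 2 and 2753 counts (151 CPM) in rapamycin 2. Summed over treatments, number 2 therefore held 1170 times the level of number 1, with an exact 95% interval of 457 to 4300 that covers counting error only. The adjusted p of the difference, from the edgeR test, was 3.3e-15. Since *SOX2* passed the filter on low counts through number 2 alone, that p-value adds no support to the counts. In number 2 the rapamycin library was higher by 0.78 on the log2 scale, and the rapamycin test over all 4 libraries did not pass (0.64 ± 0.38, adjusted p = 0.317). *SOX2* lies within *SOX2-OT*, a long noncoding gene with 0 to 71 counts per library, and whether strand was used in counting is not given in the sources used here. The same holds for *PITX1-AS1* (13 to 84 counts per library), *TFAP2A-AS1* (4 to 31), *OVOL1-AS1* (0 to 2) and *TBCD* (1284 to 2052), the last of which spans *ZNF750*.

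*KLF5*, *GRHL2*, *NOTCH1* and *PITX1* shared a smaller difference between the numbers and no rapamycin call. *KLF5*, a factor of proliferating basal cells, had 50.6, 56.2, 154 and 162 CPM in control 1, rapamycin 1, control 2 and rapamycin 2. It was higher in number 2 by 1.57 ± 0.26 (adjusted p = 1.78e-05) and had a rapamycin value of 0.11 ± 0.25 (adjusted p = 0.834). Its levels with and without rapamycin were close in both numbers, with differences of 0.15 and 0.07 on the log2 scale.

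*GRHL2*, a grainyhead factor that keeps adhesion genes on, had 82.5, 91.6, 206 and 185 CPM in the same order. It was higher in number 2 by 1.17 ± 0.26 (adjusted p = 0.000644). Its rapamycin value was −0.00 ± 0.26 (adjusted p = 0.998), and its sign changed with the normalization. Both treatments of number 1 lay below both of number 2.

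*NOTCH1* had 46.2, 63.9, 142 and 207 CPM in control 1, rapamycin 1, control 2 and rapamycin 2. It was higher in number 2 by 1.66 ± 0.26 (adjusted p = 8.38e-06). With rapamycin the value was 0.51 ± 0.25, about the same in both pairs (0.47 and 0.55), and it did not pass (adjusted p = 0.220, unadjusted p = 0.0541).

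*PITX1* had 46.5, 34.4, 169 and 212 CPM in that order. The difference between numbers was 2.24 ± 0.28 (adjusted p = 2.53e-07). Its rapamycin value of −0.05 ± 0.26 (adjusted p = 0.933) joined −0.43 in number 1 with 0.33 in number 2. *TFAP2A*, an AP-2 factor of ectoderm and keratinocytes, had 154, 81.9, 93.9 and 134 CPM in the same order. Its numbers overlapped, and neither the number (−0.00 ± 0.31, adjusted p = 0.994) nor rapamycin (−0.20 ± 0.31, adjusted p = 0.752) passed. Within the pairs it moved by −0.91 in number 1 and by 0.51 in number 2.

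**Figure D2:**
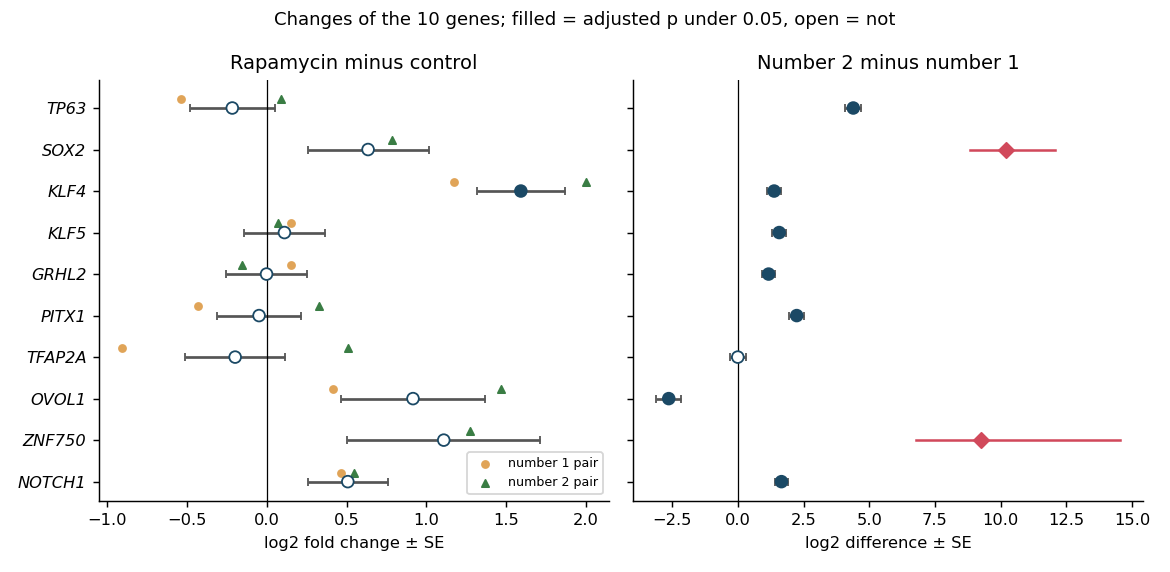
Left, log2 fold change of rapamycin minus control with its SE for each of the 10 genes, with the small symbols giving the numbered pairs. Right, log2 difference of number 2 minus number 1 with its SE, where red diamonds and lines give the ratio of summed counts and its exact 95% interval for SOX2 and ZNF750, which had at most 3 counts in each library of number 1. KLF4 alone is filled on the left (1.59), and on the right TFAP2A (−0.00) is the gene that is open.

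Among the 10 genes, *KLF5* and *NOTCH1* had the most alike profile over the 4 libraries, with a root mean square difference of 0.207 between their centred log2 CPM. *GRHL2* was next, 0.216 from *KLF5*. The nearest other member to *TP63* was *PITX1* (1.08), and that to *KLF4* was *NOTCH1* (0.589). Among all tested genes, the 3 closest to *TP63* were the unnamed gene ENSG00000275496 (0.0298), *SLC6A14* (0.195) and *ANKUB1* (0.208). Each of these 3 had at most 1 count per library in number 1 and under 2.5 CPM in number 2, so that their profile depends on the prior count of 2. The likeness rests on 4 libraries, and most of it is the gap between the numbers.

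Other squamous and epithelial factors were examined beside the 10 genes. Of 30 listed, 24 were tested, 3 rose with rapamycin and none fell, also with DESeq2, beside 4.65% higher and 3.50% lower over all tested genes. At an unadjusted p under 0.05, 7 were higher and 0 lower in edgeR, and 4 and 0 with DESeq2. *PRDM1*, a repressor known from the granular layer, rose by 1.83 ± 0.46 (adjusted p = 0.0140), *CEBPB* by 1.17 ± 0.28 (0.0120) and *EHF*, an epithelial ETS factor, by 0.92 ± 0.25 (0.0252). The median over the 24 was 0.34, beside 0.05 over all tested genes and 0.31 over the 10 genes. Between the numbers 11 were higher in number 2 and 5 were lower, beside 17.0% and 20.2% of all genes, and the median was 0.54, beside −0.03 over all genes and 1.61 over the 10. *ELF3* (4.12), *TRIM29* (3.47) and *CEBPA* (3.24) were higher in number 2, and *SOX21* had 51 and 157 counts there and none in number 1. *SOX9* (−4.00), *FOXE1* (−3.64), *KLF6* (−2.37) and *TP73* (−2.25), the paralog of *TP63*, were lower. With at least 10 counts in every library, 10 of 23 were higher and 6 lower, beside 1953 and 1974 of 12883 over all genes. *SOX21* was not tested there.

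In each of 4 lists around *NOTCH1*, 1 gene rose with rapamycin in edgeR, beside 4.65% of all genes, and none fell, at an unadjusted p under 0.05 either. Among 5 ligands this was *DLL1* (1.30 ± 0.40, adjusted p = 0.0421), with 4 and 725 counts in control 1 and 2 and 18 and 1103 in rapamycin 1 and 2. Among the 3 other receptors it was *NOTCH3* (0.96 ± 0.28, adjusted p = 0.0330), with 192 and 6968 counts in the controls and 460 and 7674 with rapamycin. Among 19 processing enzymes and nuclear partners it was the glycosyltransferase gene *RFNG* (0.995 ± 0.29, adjusted p = 0.0307). Of 8 listed targets 5 were tested, and *HES1* rose by 1.20 ± 0.33 (adjusted p = 0.0310), by 0.50 in number 1 and 1.89 in number 2. DESeq2 called *NOTCH3* and *RFNG* and did not call *DLL1* and *HES1*. The target *NRARP* had 0.81 ± 0.31 and *HES4* 0.98 ± 0.33, and neither passed (adjusted p = 0.107 and 0.0668). The medians were 0.37 for ligands, 0.08 for other receptors, 0.13 for processing and partners and 0.81 for targets.

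Between the numbers the Notch lists held calls in both directions, beside 17.0% of all genes higher in number 2 and 20.2% lower. Calls were 3 higher and 1 lower of 5 ligands, and 1 and 1 of 3 other receptors. They were 3 and 2 of 19 processing genes and partners, and 2 and 1 of 5 tested targets. *DLL1* (6.46), *JAG1* (2.27) and *JAG2* (2.17) were higher in number 2, whereas *DLL3* had 33 and 30 counts in number 1 and none in number 2. *NOTCH3* was higher in number 2 by 4.58 and *NOTCH4* was lower (−2.33). Of the processing genes and partners, *LFNG* (1.79), *MFNG* (1.62) and *MAML1* (0.77) were higher and *NUMBL* (−1.08) and *RBPJ* (−0.70), the DNA-binding partner of the receptors, were lower. None of these 5, *NOTCH4* and *HES1* passed with no treatment term, and DESeq2 did not call *MFNG*, *RBPJ* and *NOTCH4*. Of the targets, *NRARP* (2.55) and *HES1* (1.37) were higher, and *HEYL* had 143 and 81 counts in number 1 and 0 and 2 in number 2. The medians of the difference were 2.17, −0.51, 0.01 and −0.03 for ligands, other receptors, processing and partners, and targets. With at least 10 counts in every library, calls were 2 higher and 0 lower of 2 ligands, and 1 and 0 of 2 other receptors. They were 3 and 2 of 19 processing genes and partners, and 2 and 0 of 4 targets. Over all genes they were 1953 and 1974 of 12883.

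Genes of the basal layer, many of which are known as p63 targets, included 2 keratin genes that fell with rapamycin, while *TP63* itself had no call. Of 13 tested, 2 fell and 1 rose, beside 3.50% lower and 4.65% higher over all tested genes, with a median of −0.31. *KRT5*, the keratin of basal cells, had 740 and 40305 counts in control 1 and 2 and 116 and 5956 in rapamycin 1 and 2. It fell by 2.43 ± 0.27 on the log2 scale (adjusted p = 6.06e-06), by about the same in both pairs (−2.47 and −2.38). Its partner *KRT14* had 221 counts in control 2 and 23 in rapamycin 2 and none in number 1 (−2.85 ± 0.83, adjusted p = 0.0327), a call that DESeq2 did not make. *LAMB3*, a laminin 332 chain, rose by 1.20 ± 0.27 (adjusted p = 0.00677). Between the numbers 8 were higher in number 2, among them *KRT15* (7.04), *KRT5* (5.69), *COL17A1* (4.85) and *KRT14*, which had no count in number 1, and 4 were lower, beside 17.0% and 20.2% of all genes. The lower genes included *LAMA3* (−2.16), *LAMB3* (−1.66) and *DST* (−1.49), and the call for *LAMB3* was lost with no treatment term. The median of the difference was 1.56. With at least 10 counts in every library, 7 of 12 were higher and 4 lower, beside 1953 and 1974 of 12883 over all genes. *KRT14* was not tested there.

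Of 22 genes of the differentiated layers 12 were tested, and none rose with rapamycin in edgeR or DESeq2. At an unadjusted p under 0.05 in edgeR, 0 were higher and 4 lower. *KRT4*, a keratin of oral mucosa, fell from 249 counts in control 2 to 20 in rapamycin 2 (−2.86 ± 0.87, adjusted p = 0.0440), with 0 and 1 count in control 1 and rapamycin 1. That call was lost with DESeq2 and with upper-quartile normalization. The median was −0.47, and 6 of the 22 genes had no count in any library. In number 2, 7 were higher, among them *KRT13* (8 and 9 counts in number 1 against 14974 and 4520 in number 2), *KRT4*, *KRT16* (2.75) and *PPL* (2.31). *KLK5* (−3.19) and *IVL* (−2.23), which encodes involucrin, were lower, the latter not with DESeq2 or with no treatment term, and the median was 0.99. The 7 higher and 2 lower of 12 stand beside 17.0% and 20.2% of all genes. With at least 10 counts in every library, 5 of 8 were higher and 1 lower, beside 1953 and 1974 of 12883 over all genes. *KRT13*, *KRT4* and *IVL* were not tested there.

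None of the 14 genes of epithelial state and epithelial-mesenchymal transition passed for rapamycin in edgeR with the main filter or in DESeq2 (median 0.12). With no filter on low counts, edgeR called *CLDN4* higher (0.87 ± 0.38 and adjusted p = 0.193 with the main filter). At an unadjusted p under 0.05 with the main filter, 3 were higher and 0 lower, among them *RAB25* (0.72 ± 0.26, adjusted p = 0.0807). In number 2, *RAB25* (2.18) and *ESRP1* (0.94) were higher and 7 genes were lower, beside 17.0% and 20.2% of all genes. *CDH2* (−6.84), which encodes N-cadherin, *VIM* (−6.31), which encodes vimentin, and the repressor *ZEB2* (−4.26) were among the latter. So was the epithelial marker *CDH1* (−0.67). The calls for *CDH1* and *ESRP1* were lost with no treatment term. *TWIST2* had 172 and 160 counts in number 1 and none in number 2. The median of the difference was −0.64. With at least 10 counts in every library, 2 of 10 were higher and 3 lower, beside 1953 and 1974 of 12883 over all genes. *CDH2*, *ZEB1*, *ZEB2* and *TWIST2* were not tested there, having few or no counts in number 2. Among 6 growth factor receptor and signalling genes none passed for rapamycin in edgeR or DESeq2 (median 0.27, with 1 higher at an unadjusted p under 0.05 in edgeR). In number 2, *FGFR3* (5.40) and *FGFR2* (2.60) were higher and *EGFR* (−4.29) was lower, beside 17.0% and 20.2% of all genes (median −0.06).

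**Figure D3:**
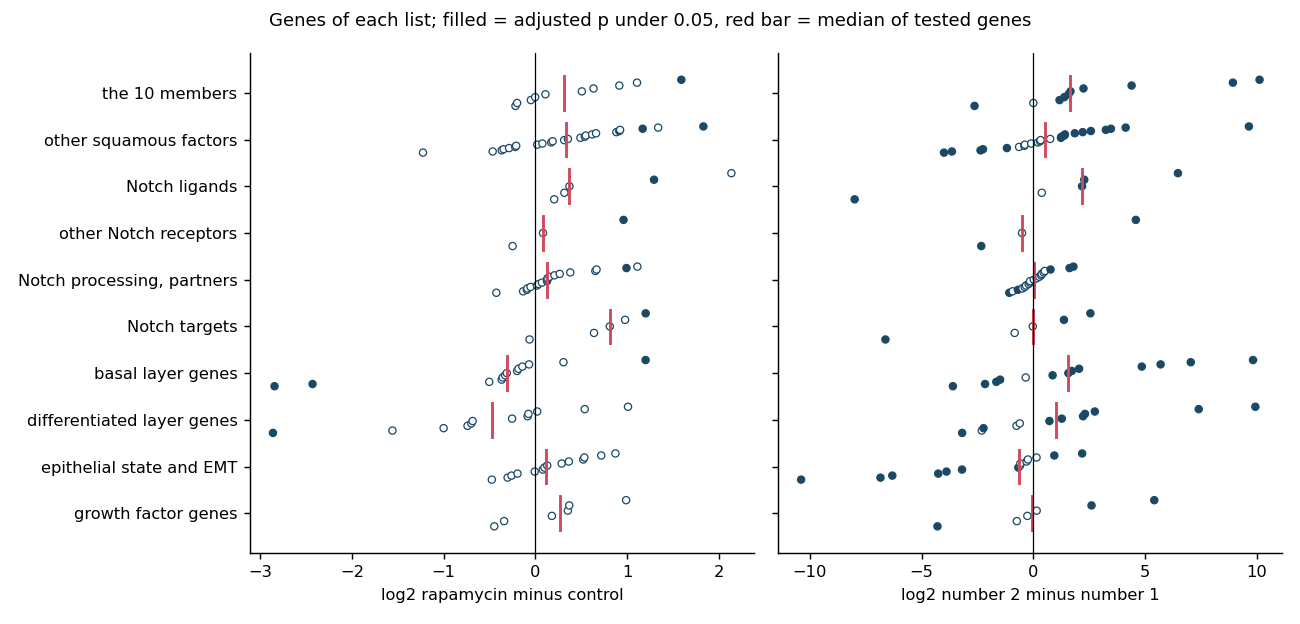
Log2 values of the tested genes of each list for rapamycin minus control (left) and number 2 minus number 1 (right), each circle 1 gene and the red bar the median of the list. On the left, filled circles, which mark an adjusted p under 0.05, are few in each list and lie to the right for the transcription factor and Notch lists and to both sides for the basal list, where KRT5 is at −2.43 and LAMB3 at 1.20. On the right, the fitted values of genes with no count in 1 number (TWIST2, DLL3, SOX21 and KRT14) are no bounds.

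The markers of squamous epithelium were unequal between the numbers. *CDH1* (4032 to 7223 counts) and *EPCAM* (2870 to 5889) were present in every library, whereas the keratin genes *KRT14*, *KRT6A*, *KRT17* and *KRT5* had 0 to 740 counts per library in number 1. Of 7 such markers 4 fell with rapamycin (*KRT5*, *KRT14*, *KRT6A* and *S100A2*), beside 3.50% of all genes, and DESeq2 did not call *KRT14*. In number 2, 5 were higher and 1, *CDH1* (−0.67, adjusted p = 0.0403), was lower, beside 17.0% and 20.2% of all genes. *EPCAM* had −0.59 and did not pass (adjusted p = 0.0685), though it did with DESeq2 and with upper-quartile normalization. *KRT6A* and *CDH1* were not called with no treatment term. With at least 10 counts in every library, 3 of 5 were higher and 1 lower, beside 1953 and 1974 of 12883 over all genes. *KRT14* and *KRT6A* were not tested there. The summed level of the 7 was 661 and 541 CPM in control 1 and rapamycin 1 and 4513 and 2959 CPM in control 2 and rapamycin 2. Of 6 fibroblast markers *COL1A2*, *COL3A1* and *DCN* were at 0 in every library, and *COL1A1* had 208 to 558 counts per library. *PDGFRB* had 224 and 281 counts in number 1 and none in number 2. *LUM* had 75 and 49 counts in control 1 and rapamycin 1 and 0 and 2 in control 2 and rapamycin 2. The summed level of the 6 was 8.79 to 46.7 CPM. The 5 leukocyte markers summed to at most 0.658 CPM per library, with *PTPRC* at 0. Of 3 endothelial markers *CDH5* was higher in number 2, where it had 607 and 758 counts, the calls for *PECAM1* and *VWF* were lost with DESeq2 and with no treatment term, and their sum was 1.42 to 45.4 CPM. The 3 melanocyte or nerve markers summed to 2.79 to 4.44 CPM with *MLANA* at 0. The part of these markers in the difference between numbers was not tested.

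Peaks of m6A were counted from the lists made by the authors for each pair of libraries, with no replicate, so that values between lists are descriptions. Of the 10 genes, 6 had a peak in the HSC3 control list, 4 in the HSC3 rapamycin list, 5 in the CAL33 control list and 7 in the CAL33 rapamycin list. In HSC3 control, *SOX2* and *KLF4* counted through 1 peak each, with a listed false discovery rate of 0.245. In CAL33 rapamycin, *NOTCH1* counted through 1 peak with a rate of 0.508. Without these peaks the counts were 4, 4, 5 and 6 in the same order, equal between the treatments in HSC3. The shares over all genes were not recounted this way. Among all tested genes, the shares with a peak were 17.6%, 17.5%, 16.1% and 14.2%, and among the 3339 genes whose mean log2 CPM reached 6 they were 29.9%, 29.0%, 29.3% and 25.0%. A peak in any list was found on 7 of the 10 genes against 35.4% of all tested genes and 51.8% of those 3339, and a peak in all 4 lists on 2 (*PITX1* and *KLF5*) against 3.61% of all. Of the 40 peaks, 21 were classed as 3′ UTR, 16 as coding sequence, 2 as 5′ UTR and 1 as start codon.

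*TP63*, *OVOL1* and *ZNF750* had no peak in any list. *TP63* had 257 to 7870 RNA-seq counts per library, *OVOL1* 30 to 300 and *ZNF750* 0 to 408.

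**Figure D4:**
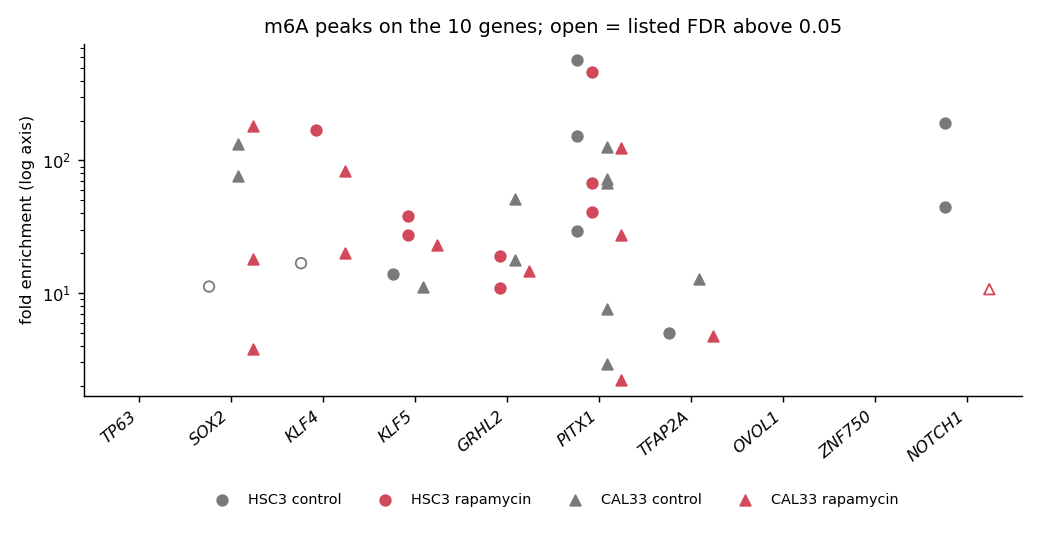
Fold enrichment (log axis) of every listed m6A peak on the 10 genes, with circles for HSC3, triangles for CAL33, grey for control and red for rapamycin, and open symbols for a listed false discovery rate above 0.05. PITX1 carries 14 of the 40 peaks and the highest enrichment (572), and TP63, OVOL1 and ZNF750 carry none.

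*PITX1* (chromosome 5, minus strand) held 14 of the 40 peaks and was marked in every list. A stretch at its 3′ end, chr5:135027913-135029074 on hg38, held 9 peaks of all 4 lists, with fold enrichment over input between 2.22 and 572. In HSC3 the highest peak there had 572 without and 465 with rapamycin, at the 98.3rd and 98.7th percentile of its list. In CAL33 the long 3′ UTR peak had 7.53 without rapamycin (chr5:135028300-135028776) and 125 with it (chr5:135028330-135029044), but the control list held a separate coding peak of 126 at chr5:135028836-135029074 that the longer rapamycin peak covers in part. The enrichment of the stretch as a whole therefore did not move one way.

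A coding peak of *PITX1* at chr5:135031325-135031622 was in all 4 lists, once each. It had 29.2 in HSC3 control and 67.4 in HSC3 rapamycin, the 46.5th and 69.7th percentile. In CAL33 it had 68.1 without and 27.4 with rapamycin, the 60.6th and 43.5th percentile. The cell lines moved in opposite directions. A start codon peak (chr5:135033747-135034015, 72.4) was in the CAL33 control list alone.

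*SOX2*, on chromosome 3, had 2 peaks in CAL33 control and 3 in CAL33 rapamycin. The 3′ UTR peak had 132 without rapamycin (chr3:181713180-181713629) and 18.1 with it (chr3:181713300-181713658), the 75.6th and 32.2nd percentile. Over the coding sequence 1 peak of 76.6 in the control (chr3:181712283-181712791) overlapped 2 rapamycin peaks, one of 182 classed as 5′ UTR (chr3:181712163-181712343) and one of 3.79 in the coding sequence (chr3:181712462-181712672). In HSC3 a coding peak of 11.2 was listed in the control (chr3:181712522-181712642) with a false discovery rate of 0.245, and none with rapamycin. The RNA of the libraries numbered 1 held 1 and 3 counts of this gene.

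**Figure D5:**
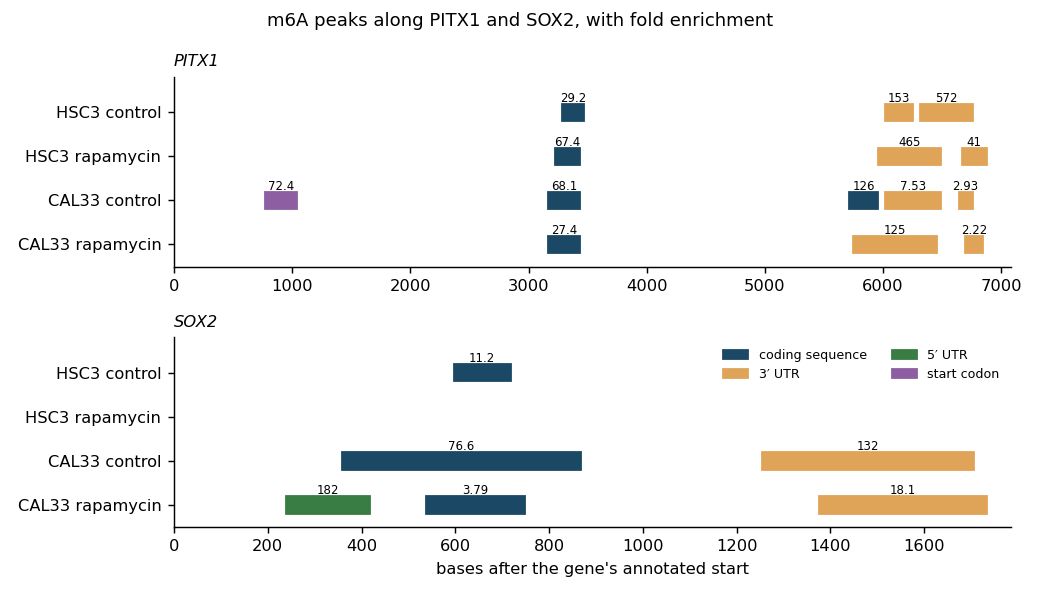
Positions of the m6A peaks of PITX1 and SOX2 in the 4 lists, in genomic bases after the annotated start of each gene and coloured by the listed class, with the fold enrichment above each. The PITX1 coding peak is present in all 4 lists, with 29.2 and 67.4 in HSC3 and 68.1 and 27.4 in CAL33, and SOX2 peaks with a false discovery rate under 0.05 are in the CAL33 lists.

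*KLF4*, whose RNA rose, had no peak in the CAL33 control list and 2 coding peaks with rapamycin, of 83.1 (chr9:107487872-107488112) and 20.1 (chr9:107487272-107487482). In HSC3 the control held 1 coding peak of 16.8 (chr9:107487992-107488232) with a false discovery rate of 0.245, and the rapamycin list held a 3′ UTR peak of 169 (chr9:107485422-107485662) at the 91.5th percentile. No *KLF4* peak overlapped between the treatments of a line. The coding peak of HSC3 control and that of 83.1 in CAL33 rapamycin overlapped by 121 bases.

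*KLF5*, *GRHL2*, *TFAP2A* and *NOTCH1* had 16 peaks in all. *KLF5* was in every list, as a 5′ UTR peak in HSC3 control (14, chr13:73058968-73059178) and as coding peaks in HSC3 rapamycin (38.3 and 27.3), CAL33 control (11.2) and CAL33 rapamycin (23.0). Its peaks overlapped between the lists once, for HSC3 rapamycin (38.3) and CAL33 control, by 180 bases. *GRHL2* had 3′ UTR peaks of 19.1 and 10.9 in HSC3 rapamycin, 17.7 and 51.4 in CAL33 control and 14.7 in CAL33 rapamycin, and none in HSC3 control, and 3 of these lay in 1 stretch of 421 bases.

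*TFAP2A* had 1 weak 3′ UTR peak in 3 lists within chr6:10397860-10398220, with 5.02 in HSC3 control, 12.7 in CAL33 control and 4.72 in CAL33 rapamycin, between percentile 7.81 and 18.9 of their lists. *NOTCH1* had a 3′ UTR peak of 191 (chr9:136495881-136496091) and a coding peak of 44.9 spanning 2 exon blocks in HSC3 control and none in HSC3 rapamycin. In CAL33 it had a single peak of 10.7, with rapamycin, with a false discovery rate of 0.508.

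Within a line, peaks were counted as common to the treatments when they overlapped by at least 1 base. In HSC3, 3 of 8 rapamycin peaks (37.5%) and 3 of 9 control peaks (33.3%) of the 10 genes did so, all of them on *PITX1*, beside 28.2% of all rapamycin peaks and 28.2% of all control peaks. In CAL33, 8 of 12 rapamycin peaks (66.7%) and 8 of 11 control peaks (72.7%) did so, beside 29.9% and 25.0% of all. The CAL33 peaks in question lay on *PITX1*, *SOX2*, *GRHL2* and *TFAP2A*, and several peaks of 1 gene are not independent.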

How the data were processed

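RNA-seq (4 libraries) and MeRIP-seq (8 libraries) were analysed from the deposited files. Counts of reads per gene, not normalized, were deposited under Ensembl identifiers, and 57532 of 58302 were matched to a symbol. The submitters' processing notes name the build hg38 and cutadapt 2.5, HISAT2 2.1.0, featureCounts 1.6.3 and HOMER 4.10.4, with no settings. The library kit is stranded. Totals were 18492273 to 23763098 counts per library, with 5.71% to 7.94% on mitochondrial genes. For each peak the authors deposited the fold enrichment over input, a ratio, and scores that hold the log10 p-value and log10 false discovery rate. Peaks were called per pair of libraries, and their depth is unknown. Positions count from 1.

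Counts were tested with edgeR 4.0.16 in R 4.3.3 (filterByExpr, TMM, robust quasi-likelihood test, Benjamini-Hochberg adjustment over all 15826 genes at 0.05) with treatment and replicate number as terms, and CPM use TMM library sizes. The number was kept as a block because it marks the cell line in MeRIP-seq and because the difference between numbers correlated at 0.901 between treatments across genes. The fold change is moderated, and a level is not compared between genes because lengths were not used. Alternatives were DESeq2 1.42.0, no block, no treatment term, upper-quartile normalization, no filter, at least 10 counts in every library, each library left out, stricter peak limits and other overlap rules. Peaks were matched in Python 3.11.15, and scripts were tested on simulated data.

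The 10 genes, the lists and the rule for named genes were chosen with earlier results of these data known. Named were all 10 genes and their peaks, from each list at most 4 genes per direction past the threshold with the largest log2 value, and the nearest profiles. Some genes of the lists are not reported here by name. Genes given without passing, and markers, were added after their values were seen.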

Additional observations from a re-analysis of the deposited data

Results flagged for a closer look

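Values that moved in opposite directions in the numbered pairs, or in the cell lines, were picked out for a closer look, and the difference between the pairs was not tested, since each holds 1 library per treatment. *TFAP2A* moved by −0.91 (rapamycin minus control, log2) in number 1 and by 0.51 in number 2. *PITX1* moved by −0.43 and 0.33, *TP63* by −0.54 and 0.087, and *GRHL2* by 0.15 and −0.15. The coding m6A peak of *PITX1* moved up by 23.2 percentile points of its list with rapamycin in HSC3 and by −17.1 points in CAL33.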

How the results depend on the processing

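The rapamycin calls rest on the replicate block. Without the replicate block 0 of 15826 genes and 0 of the 10 genes passed in edgeR (446 genes at an unadjusted p under 0.05, against 3736 with the block), *TP63* was 0.058 and *PITX1* 0.19 in place of values below 0, and *KLF4* was 1.77. *KLF4* passed with every other tool and filter tried (adjusted p 4.73e-06 to 0.00155, log2 1.56 to 1.67). DESeq2 called 818 genes, with no adjusted p for 3682. Upper-quartile normalization moved the median of all genes from 0.05 to 0.13 and gave 805 higher and 360 lower genes in place of 736 and 554, with *GRHL2* at 0.073 and *PITX1* at 0.026. *GRHL2* was 0.024 with at least 10 counts in every library and 0.012 with DESeq2, and *TFAP2A* in number 2 minus number 1 was 0.0051 with no filter. Between the numbers, 3057 genes passed with no treatment term (8 of the 10 genes, *KLF4* lost) and 3927 with at least 10 counts in every library, where *SOX2* and *ZNF750* were not tested. Leaving out a library leaves 1 pair and no spread to test against, and *KLF4* then had 1.17 to 2.00 for rapamycin. *SOX2* was −0.66 and *ZNF750* −0.56 for rapamycin where only number 1 held a pair, and 8.54 and 6.02 between the numbers where only the controls did. These values rest on at most 3 counts per library of number 1. Counting any peak on the same gene, 6 of the 8 HSC3 rapamycin peaks were common to the treatments in place of 3. With the other peak limits and overlaps, the counts stayed within 1.5 times. The depth of the m6A libraries is unknown.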
